A study of Mus musculus with 10 samples.

Results

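The genes described here encode the potassium, sodium, calcium and pacemaker channels of the mouse heart. They were taken by symbol, as every gene whose name starts with Kcn, Hcn, Scn or Cacn followed by its family number or letter. That gave 39 of the 11790 genes in the deposited table: 24 potassium, 5 sodium, 8 calcium and 2 pacemaker channel genes. Heart tissue from 10 mice was compared by RNA sequencing, 5 A-PDK1KO and 5 control. A-PDK1KO mice lack PDK1, a kinase that activates AKT below the insulin receptor, in adipocytes only, and controls are PDK1 flox/flox mice, which carry the floxed alleles without the deletion. All mice were 10 to 11 weeks old and randomly fed when killed. The sources used here do not give the Cre driver, sex or strain, and the heart itself is not the organ that was mutated.

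Voltage-gated channels shape each heartbeat in turn. Sodium channels carry the upstroke of the action potential, L-type calcium channels carry the plateau that starts contraction, and several potassium currents then bring the membrane back to rest. The mouse ventricle repolarises quickly, mainly through a transient outward current and sustained potassium currents, while inward rectifiers and two-pore channels hold the resting potential. HCN channels open when the membrane is hyperpolarised and carry the pacemaker current. Most of these channels are assemblies of a pore-forming subunit with accessory subunits that set how many channels reach the membrane and how they open and close.

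Levels are FPKM, the fragments per kilobase of gene, scaled to the library, which allows genes of different length to be set side by side. Between 9249256 and 11384424 reads were counted per heart, so 1 FPKM stands for few reads in a short gene, and low members are measured less precisely. All 6 working cardiomyocyte markers were abundant, and all 6 had lower means in A-PDK1KO hearts, by log2 differences of -0.22 to -0.02, with none called. Tnni3, cardiac troponin I, was at 2157 ± 94.2 and 1865 ± 71.0 FPKM, and its groups did not overlap (log2 difference -0.21, limma adjusted p = 0.0605). The part of these differences in the channel genes that fell was not tested. Of 5 adipocyte markers none is analysed here. Atrial tissue was uneven: Myl7, the atrial myosin light chain, lay between 35.0 and 85.9 FPKM in 4 hearts (replicates 2 and 5 of the controls, 3 and 5 of A-PDK1KO) and at 0.877 FPKM or less in the other 6. Control replicate 4 and A-PDK1KO replicate 2 stood apart in scale, with median-of-ratios factors of 1.09 and 1.15 against 0.938 to 1.04 in the rest. The labels number the hearts as separate samples, and all pairs of hearts of 1 genotype differed by more than sampling noise.

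Channel transcripts spanned a wide range of levels. The most abundant was Kcnk3, a two-pore potassium channel, at 69.7 ± 10.2 FPKM in controls (mean ± SD, n = 5, as for all group means below). Kcnip2, the accessory subunit of the transient outward current, was next at 54.4 ± 6.45 FPKM, followed by Kcng2 and Kcnj11. A mean over all hearts of at least 10 FPKM was reached by 9 members, 6 of them potassium channel genes. At the other end, 8 members had a mean under 1 FPKM and were not tested: Cacnb3, Kcnd3, Kcne1, Kcne4, Kcnk1, Kcnk6, Kcnn2 and Kcnv2. Control replicate 4 was the highest control for 28 of the 39 members, or 71.8%, against 47.7% of all tested genes. A-PDK1KO replicate 2 was the highest of its group for 13 members, or 33.3%, against 54.4% of all tested genes.

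**Figure D1:**
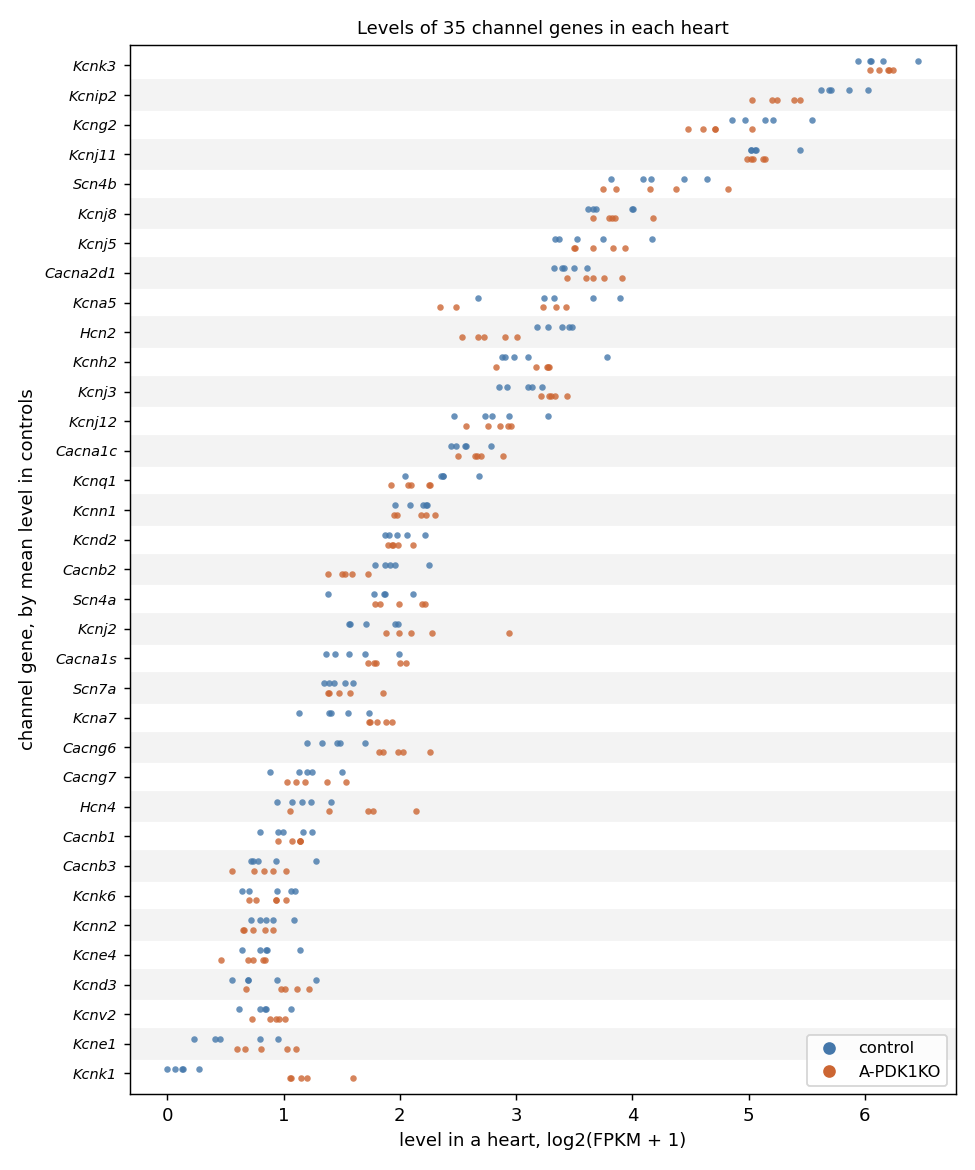
Level of 35 channel genes in each heart, on the log2(FPKM + 1) scale, ordered from top to bottom by the control mean; each point is 1 heart, blue for control and orange for A-PDK1KO. Kcnk3 lies at the top in both groups with overlapping points, whereas the points of Kcnip2 and Hcn2 are shifted to lower values in A-PDK1KO hearts and those of Kcnk1, at the bottom, to higher ones.

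Of the 31 channel genes tested, 3 differed between the genotypes. Hcn2 and Kcnip2 fell in A-PDK1KO hearts and Cacng6, a gamma subunit of calcium channels, rose. The test was limma on log2(FPKM + 1), called at a Benjamini-Hochberg adjusted p under 0.05 over all genes tested. All log2 differences below are A-PDK1KO minus control, on that scale unless a setting with another scale is named. Called members made up 9.68% of those tested, against 2.08% of all 9987 tested genes. Of all tested genes 1.21% were called higher and 0.871% lower, so that 58.2% of all calls were higher, a share that was 71.2% with scaling without mitochondrial and haemoglobin genes, 49.3% with median-of-ratios factors, 40.9% without A-PDK1KO replicate 2 and 25.0% of the 4 calls in the 6 hearts with little Myl7. A further 8 members had an unadjusted limma p under 0.05 without being called, 5 higher in mean (Kcna7, Kcnj3, Kcnj2, Hcn4, Cacna2d1) and 3 lower, Cacnb2 and Kcng2 among them. With the called genes these make 11 members, or 35.5%, against 15.6% of all tested genes.

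The members did not shift together in 1 direction. The log2 difference was above 0 in 17 and below 0 in 14, with a median of 0.03, against 0.02 over all tested genes. The median absolute change was 0.11, against 0.10 over all tested genes. By current carried, it was above 0 in 8 of 17 tested potassium, 2 of 5 sodium, 6 of 7 calcium and 1 of 2 pacemaker genes. Other scalings moved this count for the potassium genes only, to between 7 and 10 of 17. In 20 tested members the unadjusted p was 0.05 or more, and their 95% intervals lay between -0.94 and 0.52 on the log2(FPKM + 1) scale. Such intervals still allow sizeable differences in single genes.

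**Figure D2:**
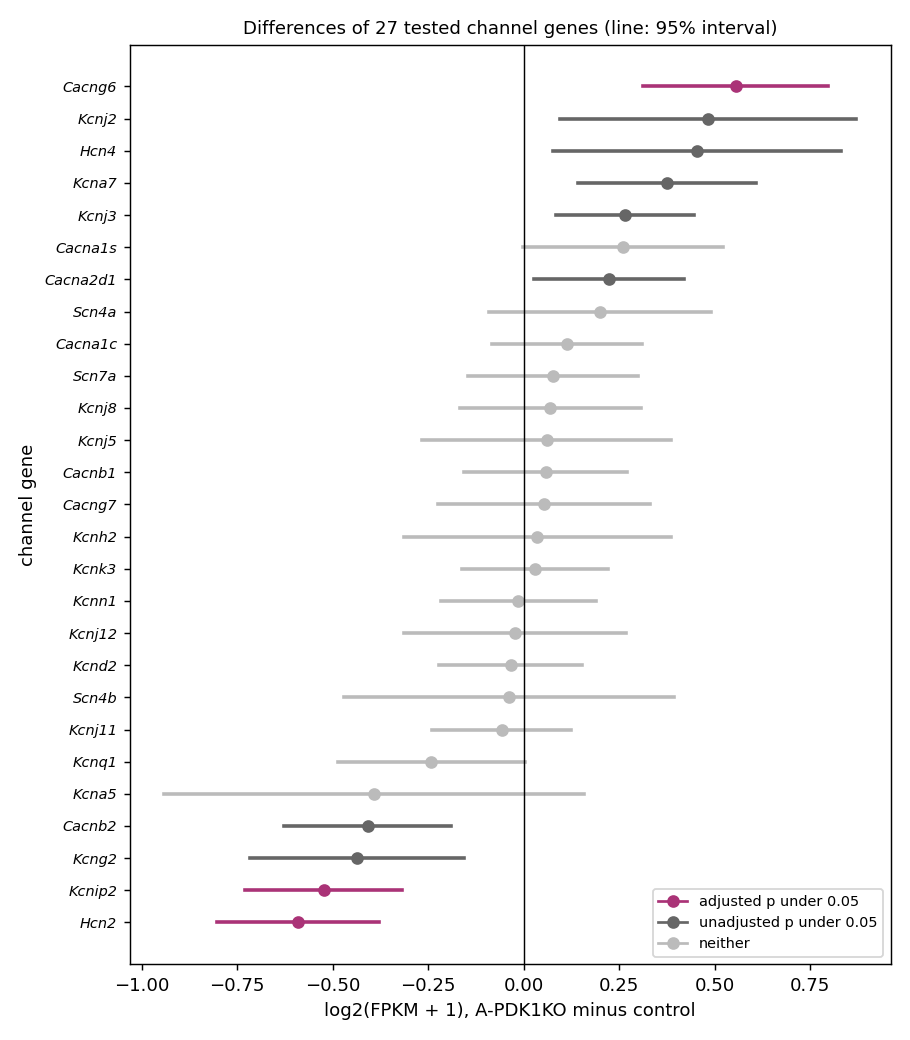
Difference of 27 tested channel genes, A-PDK1KO minus control on the log2(FPKM + 1) scale, with the 95% interval from limma as a line. Cacng6 stands at the top at 0.55 and Kcnip2 and Hcn2 at the bottom at -0.52 and -0.59, while most lines cross 0.

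In 5 tested members every A-PDK1KO heart lay on 1 side of every control heart, which is 16.1% of those tested, against 4.96% of all tested genes. Cacng6 and Kcna7 were separated upward (2.72% of all tested genes were) and Hcn2, Kcnip2 and Cacnb2 downward (2.23% of all tested genes were). Kcnk1, too low for the test, was separated upward as well. In bulk heart RNA, fewer cells that express a gene and less RNA per cell cannot be told apart.

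**Figure D3:**
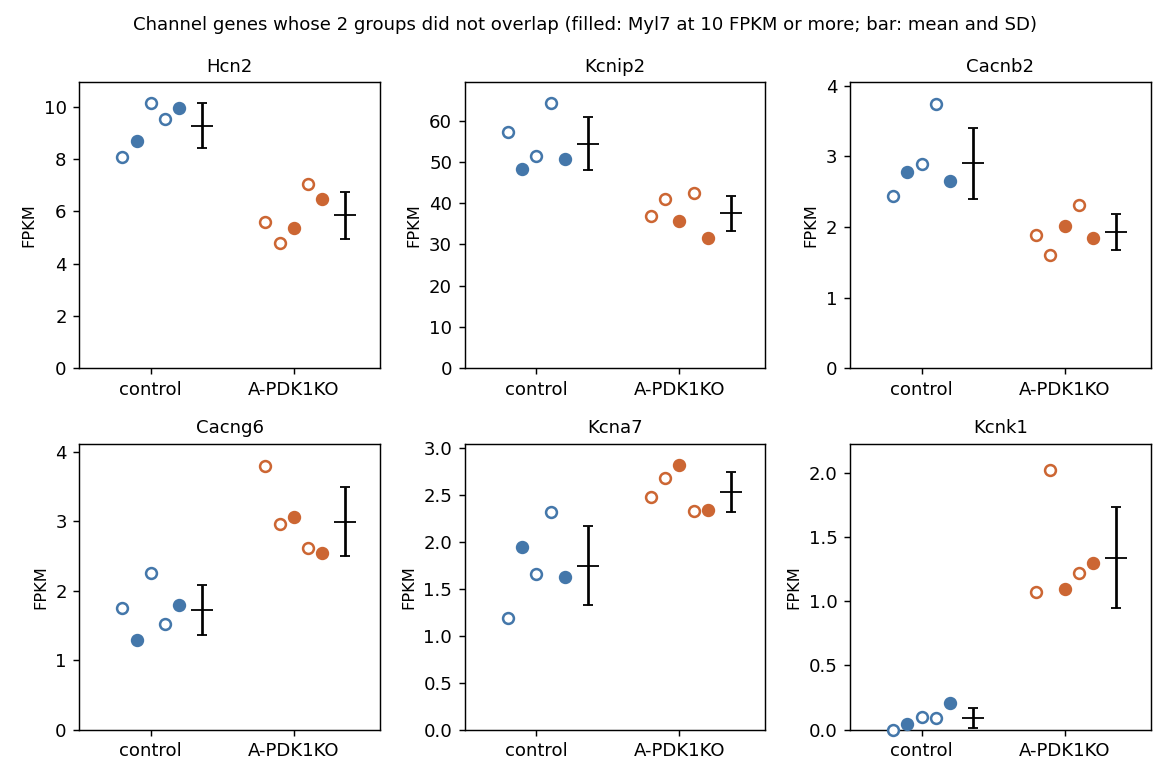
FPKM in each heart for the 6 channel genes whose groups did not overlap; filled points are hearts with Myl7 at 10 FPKM or more, and the bar gives mean and SD of 5 hearts. In each panel all A-PDK1KO points, filled and open, lie on 1 side of all control points, below them for Hcn2, Kcnip2 and Cacnb2 and above them for Cacng6, Kcna7 and Kcnk1.

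The sequences before the start sites of the 2 genes that fell and of Kcnk1, the member with the largest ratio between the groups, are shown so that the stretches in front of them can be compared. They are the 250 bases 5′ of the RefSeq start site in GRCm38.p6, which is the mm10 build, written 5′ to 3′ on the gene's strand. Capitals mark a GC box (GGGCGG or CCGCCC), the site bound by SP factors, or a forkhead core (TGTTTA or TAAACA), the shared core of sites bound by FoxO and other forkhead factors. For Cacng6 the window lies inside the first exon of the GENCODE annotation and is not shown.
Hcn2, chr10:79716384-79716633, plus strand: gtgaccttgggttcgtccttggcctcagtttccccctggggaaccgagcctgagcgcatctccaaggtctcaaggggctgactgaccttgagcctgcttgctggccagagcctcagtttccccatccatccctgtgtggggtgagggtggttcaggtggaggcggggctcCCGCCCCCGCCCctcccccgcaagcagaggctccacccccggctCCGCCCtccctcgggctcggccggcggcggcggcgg
Kcnip2, chr19:45816064-45816313, minus strand: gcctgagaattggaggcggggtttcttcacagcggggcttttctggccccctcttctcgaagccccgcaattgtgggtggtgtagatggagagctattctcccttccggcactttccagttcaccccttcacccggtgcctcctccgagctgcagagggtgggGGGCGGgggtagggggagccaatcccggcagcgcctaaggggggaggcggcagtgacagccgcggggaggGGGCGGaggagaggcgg
Kcnk1, chr8:125994852-125995101, plus strand: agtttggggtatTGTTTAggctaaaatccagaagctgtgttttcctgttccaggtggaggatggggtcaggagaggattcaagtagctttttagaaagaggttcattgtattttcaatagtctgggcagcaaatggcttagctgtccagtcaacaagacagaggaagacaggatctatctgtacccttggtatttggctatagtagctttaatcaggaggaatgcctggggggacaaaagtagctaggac

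The windows of the genes that fell are rich in G and C, at 70.4% for Hcn2 with 3 GC boxes and 66.8% for Kcnip2 with 2, and neither holds a forkhead core. The Kcnk1 window has 44.4% GC, no CpG pair and no GC box, and holds 1 forkhead core that begins 238 bases before the start. Among all 32851 RefSeq windows of this length 32.7% hold a GC box, 12% hold a forkhead core and the median GC content is 52.4%. A window was found for 27 of the 39 channel genes, 33 windows in all, of which 48.5% hold a GC box and 3.03% a forkhead core, with a median GC content of 60.4%. These are matches of letters and say nothing about binding in these hearts.

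Pacemaker channels are considered first. Hcn2 (chromosome 10, 79716634 to 79736108) encodes the main HCN subunit of working ventricular muscle. It stood at 8.09, 8.71, 10.1, 9.52 and 9.96 FPKM in control replicates 1 to 5. The A-PDK1KO hearts were at 5.61, 4.79, 5.38, 7.04 and 6.47 FPKM. Every A-PDK1KO heart was below every control, and the closest pair was A-PDK1KO replicate 4 and control replicate 1. The mean fell from 9.28 ± 0.869 to 5.86 ± 0.894 FPKM, 1.58-fold lower (log2 difference -0.59 ± 0.10 SE, limma adjusted p = 0.0127). Between 149 and 341 reads per heart lie behind these values. With each heart left out in turn the call held in 10 of 10 fits, at adjusted p up to 0.0410. It was lost among the 6 hearts with little Myl7, 3 against 3, at an almost equal log2 difference of -0.60 (adjusted p = 0.249). The 4 hearts with atrial tissue were at 8.71 and 9.96 against 5.38 and 6.47 FPKM.

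Hcn4 (chromosome 9, 58823412 to 58863175), the main pacemaker subunit of the sinoatrial node, was the only other HCN gene in the table. Control hearts had 0.919, 1.35, 1.23, 1.66 and 1.10 FPKM. A-PDK1KO hearts had 1.07, 1.63, 3.40, 2.31 and 2.42 FPKM. Replicates 3, 4 and 5 of A-PDK1KO lay above all controls and replicates 1 and 2 among them, so the groups overlapped. The means were 1.25 ± 0.278 and 2.17 ± 0.880 FPKM (log2 difference 0.45 ± 0.17 SE, limma adjusted p = 0.224), which did not pass. Among the 6 hearts with little Myl7 the log2 difference was 0.22, and with voom on recovered reads it was 0.73. The highest A-PDK1KO values, in replicates 3 and 5, belong to the hearts with atrial tissue, while the controls with atrial tissue were at 1.35 and 1.10 FPKM. Of 7 conduction and nodal markers 3 are in the table, Hcn4 itself among them with Tbx3 and Cntn2. Their summed level was 2.11 to 3.69 FPKM in controls and 3.03 to 6.57 FPKM in A-PDK1KO hearts, and Shox2, Isl1, Cpne5 and Tbx18 are not analysed here. The part of nodal or atrial tissue in the Hcn4 values was not tested.

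The transient outward potassium current depends on Kv4 pore subunits and on KChIP2, the product of Kcnip2 (chromosome 19, 45791839 to 45816061), which brings them to the membrane and slows their inactivation. Kcnip2 was at 57.1, 48.2, 51.4, 64.3 and 50.7 FPKM in control replicates 1 to 5. In A-PDK1KO replicates 1 to 5 it was at 37.0, 40.9, 35.8, 42.4 and 31.6 FPKM. The highest A-PDK1KO heart remained below the lowest control. Kcnip2 fell from 54.4 ± 6.45 to 37.5 ± 4.30 FPKM, 1.45-fold lower (log2 difference -0.52 ± 0.09 SE, limma adjusted p = 0.0195). In both groups the hearts with atrial tissue were the lowest pair, and the other 6 hearts were also separated, at 51.4 to 64.3 against 37.0 to 42.4 FPKM. The call was lost without A-PDK1KO replicate 3 (adjusted p = 0.0537) or 5 (0.0517), on the TPM scale (0.0586) and among the 6 hearts with little Myl7 (0.201). Over all alternatives its adjusted p ranged from 0.00783 to 0.201 and its log2 difference from -0.57 to -0.46.

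Its pore-forming partner Kcnd2, which encodes a Kv4 subunit, was not called. Control hearts had 2.94, 2.74, 3.18, 3.66 and 2.66 FPKM of Kcnd2. The A-PDK1KO hearts had 2.83, 2.81, 3.34, 2.95 and 2.72 FPKM. The groups overlapped almost completely, with a log2 difference of -0.03 (95% interval -0.22 to 0.15, limma adjusted p = 0.903). The other Kv4 gene, Kcnd3, was below the test's filter at 0.809 ± 0.383 and 1.02 ± 0.272 FPKM.

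Calcium channel genes had their clearest differences among the accessory subunits. Cacng6 (chromosome 7, 3424195 to 3435667) encodes a gamma subunit, a membrane protein of calcium channel complexes in striated muscle. Its levels were 1.75, 1.30, 2.26, 1.52 and 1.79 FPKM in control replicates 1 to 5. They were 3.80, 2.96, 3.07, 2.62 and 2.54 FPKM in A-PDK1KO replicates 1 to 5. Even the lowest A-PDK1KO heart was above the highest control, control replicate 3. The mean rose 1.74-fold, from 1.72 ± 0.359 to 3.00 ± 0.4995 FPKM (log2 difference 0.55 ± 0.11 SE, limma adjusted p = 0.0299).

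This is a low transcript, counted from 26 to 72 reads per heart, and the call is close to the threshold. It held in 3 of 10 fits with 1 heart left out and was lost without control replicate 1, 2, 4 or 5 (adjusted p = 0.0556, 0.0588, 0.0539 and 0.0560) or A-PDK1KO replicate 1, 3 or 5 (0.0578, 0.0708 and 0.0522). Median-of-ratios factors (0.0518), quantile normalization (0.0645), removal of control replicate 4 together with A-PDK1KO replicate 2 (0.0715) and the 6 hearts with little Myl7 (0.337) ended it too. Its log2 difference stayed between 0.49 and 0.80 in all alternatives. The highest values, with voom (0.80) and a pseudocount of 0.1 (0.77), are on scales that shrink low genes less. Of 5 skeletal muscle markers 1, Tnni2, is in the table, at 0.207 to 0.998 FPKM in controls and 0.423 to 1.17 FPKM in A-PDK1KO hearts, and the other 4 are not analysed here. Whether it bears on Cacng6 was not tested. Cacng7, also a gamma subunit gene on chromosome 7, was at 1.37, 0.849, 1.83, 1.19 and 1.30 FPKM in controls. In A-PDK1KO hearts Cacng7 was at 1.15, 1.597, 1.04, 1.91 and 1.27 FPKM, which overlapped the controls (a log2 difference of 0.05, 95% interval -0.23 to 0.33).

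Cacnb2 (chromosome 2, 14603088 to 14987908) encodes the main beta subunit of the cardiac L-type channel, which carries the pore to the membrane. It was at 2.44, 2.77, 2.89, 3.75 and 2.65 FPKM in controls. A-PDK1KO hearts had 1.89, 1.61, 2.01, 2.30 and 1.84 FPKM. The groups were separated, by the narrow gap between A-PDK1KO replicate 4 and control replicate 1. The means were 2.90 ± 0.5002 and 1.93 ± 0.256 FPKM, 1.503-fold apart (a log2 difference of -0.41 ± 0.10 SE), and limma's adjusted p of 0.0592 missed the threshold. Cacnb2 did pass with voom on recovered reads (0.0216), with quantile normalization (0.0339), with scaling that ignores mitochondrial and haemoglobin genes (0.0350) and with median-of-ratios factors (0.0382). Cacnb2 passed in 0 of 10 fits with 1 heart left out (0.0596 to 0.131). It also did not pass on the TPM scale (0.136), with atrial tissue as a covariate (0.07045) or with the replicate block (0.05845). Its adjusted p ranged from 0.0216 to 0.451 over all alternatives. Exons of opposite-strand genes overlap 968 bases of it, and their reads cannot be told apart, as the sources used here do not say how strand was treated. Cacnb1, the beta subunit of skeletal muscle, was at 0.740, 0.936, 1.24, 1.37 and 0.989 FPKM in controls. It was at 1.11, 1.20, 1.20, 1.20 and 0.938 FPKM in A-PDK1KO hearts, all within the control range (a log2 difference of 0.06). Cacnb3, below the filter, was at 0.872 ± 0.323 and 0.766 ± 0.208 FPKM.

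Cacna1c encodes the pore of the cardiac L-type channel. It was at 4.43, 4.58, 4.89, 5.89 and 4.93 FPKM in controls. The A-PDK1KO hearts were at 4.67, 6.40, 5.27, 5.48 and 5.35 FPKM. Groups overlapped, with a log2 difference of 0.11 (95% interval -0.08 to 0.31, limma adjusted p = 0.605). Cacna2d1, the alpha2delta subunit that aids trafficking of the pore, was at 11.2, 9.04, 10.3, 9.53 and 9.62 FPKM in controls and 9.85, 14.02, 11.6, 12.5 and 11.1 FPKM in A-PDK1KO hearts. A-PDK1KO replicates 2, 3 and 4 lay above all controls and replicates 1 and 5 among them, and the difference did not pass (a log2 difference of 0.22, limma adjusted p = 0.260). Cacna1s, the L-type pore of skeletal muscle, was at 2.25, 1.72, 1.95, 2.97 and 1.58 FPKM in controls. In A-PDK1KO hearts it was at 3.15, 2.99, 2.43, 2.47 and 2.31 FPKM, above all controls but replicate 4 (a log2 difference of 0.26, limma adjusted p = 0.327). An opposite-strand gene overlaps 1309 of the 6550 exon bases of Cacna1s, and its reads cannot be told apart here.

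The two-pore potassium channels carry background current. Kcnk3 (chromosome 5, 30588170 to 30625271), which encodes the acid-sensitive channel TASK, was at 65.2, 70.4, 65.6, 86.9 and 60.6 FPKM in controls. A-PDK1KO hearts had 64.8, 72.9, 72.4, 74.5 and 68.6 FPKM, all within the control range. The group means of 69.7 ± 10.2 and 70.7 ± 3.92 FPKM were close (a log2 difference of 0.03, 95% interval -0.16 to 0.22, limma adjusted p = 0.925). Kcnk6 was below the filter at 0.870 ± 0.266 and 0.836 ± 0.166 FPKM.

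Kcnk1 (chromosome 8, 125995170 to 126030685), which encodes the weakly conducting two-pore channel TWIK, was near zero in controls. It was at 0, 0.0441, 0.0951, 0.0926 and 0.209 FPKM there, from 0, 1, 2, 2 and 5 reads. In A-PDK1KO replicates 1 to 5 it was at 1.07, 2.02, 1.09, 1.22 and 1.30 FPKM, from 23, 44, 27, 31 and 30 reads. No control came near the lowest A-PDK1KO heart, and the 0 reads of control replicate 1 allow up to 0.145 FPKM (3 reads). Per counted read the A-PDK1KO hearts together had 14.6 times as many Kcnk1 reads, 155 against 10. That ratio pools the hearts of each group and takes no account of the spread between them.

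Its mean of 0.714 FPKM kept Kcnk1 out of the test, and it is in the table only because A-PDK1KO hearts exceed 1 FPKM, so it is singled out after its values were seen and is given as a description with no test. The antisense gene Gm45875 overlaps 179 of the 2235 exon bases, and reads from the 2 strands cannot be told apart here. Groups did not overlap in 4.50% of all deposited genes.

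Among delayed and sustained potassium channels, Kcng2 (chromosome 18, 80294546 to 80364254) was the most abundant. It encodes a silent subunit that forms no channel alone and modifies other potassium channel pores. Controls had 34.4, 30.3, 36.0, 45.8 and 28.0 FPKM of Kcng2. A-PDK1KO hearts had 21.3, 23.4, 25.2, 31.7 and 25.2 FPKM. All but replicate 4 lay below every control, and the means were 34.9 ± 6.87 and 25.4 ± 3.90 FPKM (log2 difference -0.44 ± 0.13 SE, limma adjusted p = 0.114).

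Kcna5, the pore of an ultrarapid sustained current, varied widely between hearts of 1 group. It was at 9.03, 5.38, 11.6, 13.9 and 8.45 FPKM in controls. In A-PDK1KO hearts it was at 4.59, 4.09, 9.14, 9.79 and 8.40 FPKM. Replicates 1 and 2 of A-PDK1KO were below all controls and the others among them, so the mean difference of -0.39 on the log2 scale came with a 95% interval of -0.94 to 0.16 (limma adjusted p = 0.506). Kcna7 (chromosome 7, 45405653 to 45409763), a related pore gene, was at 1.19, 1.94, 1.66, 2.32 and 1.62 FPKM in controls. It was at 2.49, 2.68, 2.82, 2.33 and 2.35 FPKM in A-PDK1KO hearts. Separation of the groups was minimal, since control replicate 4 lay just under A-PDK1KO replicate 4. The means were 1.75 ± 0.420 and 2.53 ± 0.213 FPKM (log2 difference 0.37 ± 0.11 SE, limma adjusted p = 0.105), and scaling without mitochondrial and haemoglobin genes brought it just past the threshold (0.0477, range over the alternatives 0.0477 to 0.581). Kcnv2, a silent subunit, was below the filter at 0.790 ± 0.202 and 0.875 ± 0.138 FPKM.

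The rapid and slow delayed rectifiers were measured through their pore genes Kcnh2 and Kcnq1. Kcnh2 was at 7.59, 6.88, 6.36, 12.8 and 6.49 FPKM in controls. A-PDK1KO hearts were at 6.11, 8.62, 8.67, 8.76 and 8.01 FPKM. Control replicate 4 was far above and A-PDK1KO replicate 1 well below the rest of its group, and the log2 difference was 0.04 (95% interval -0.31 to 0.38). Kcnq1 was at 3.12, 4.17, 4.10, 5.41 and 4.17 FPKM in controls and at 3.29, 2.78, 3.21, 3.76 and 3.80 FPKM in A-PDK1KO hearts. All A-PDK1KO hearts lay below all controls except control replicate 1 (a log2 difference of -0.24, limma adjusted p = 0.329). The accessory genes Kcne1 (0.509 ± 0.314 and 0.808 ± 0.281 FPKM) and Kcne4 (0.823 ± 0.238 and 0.645 ± 0.168 FPKM) were below the filter.

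Inward rectifiers fall into 3 groups. The resting current IK1 is carried by Kcnj2 and Kcnj12. Kcnj2 was at 2.26, 2.88, 1.97, 2.94 and 1.95 FPKM in controls. In A-PDK1KO hearts it was at 3.85, 6.69, 2.68, 2.99 and 3.28 FPKM. Replicate 2 of A-PDK1KO was far above the others, and only replicate 3 fell within the control range. The means were 2.40 ± 0.482 and 3.90 ± 1.62 FPKM, and the difference was not called (log2 difference 0.48 ± 0.18 SE, limma adjusted p = 0.206). Without A-PDK1KO replicate 2 its log2 difference was 0.31. Kcnj12 was at 5.94, 5.63, 6.68, 8.69 and 4.51 FPKM in controls and 4.93, 5.78, 6.29, 6.77 and 6.64 FPKM in A-PDK1KO hearts, which all lay inside the control range (a log2 difference of -0.02).

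The acetylcholine-gated current IKACh, which slows the atria and nodes under vagal input, is carried by Kcnj3 and Kcnj5. Kcnj3 was at 6.24, 8.34, 6.58, 7.58 and 7.82 FPKM in controls. A-PDK1KO hearts were at 8.86, 9.09, 9.81, 8.29 and 8.72 FPKM. Only control replicate 2 and A-PDK1KO replicate 4 overlapped, and the means were 7.31 ± 0.876 and 8.95 ± 0.560 FPKM (log2 difference 0.26 ± 0.08 SE, limma adjusted p = 0.138). An opposite-strand gene overlaps 1621 of its exon bases. Kcnj5 was at 12.4, 9.12, 10.5, 16.9 and 9.32 FPKM in controls and 10.4, 13.3, 10.3, 14.4 and 11.6 FPKM in A-PDK1KO hearts, all within the control range (a log2 difference of 0.06).

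The ATP-sensitive current, which opens when the energy charge of the cell falls, uses Kcnj11 in cardiomyocytes and Kcnj8 mainly in vessels. Kcnj11 was at 31.6, 32.2, 32.5, 42.5 and 31.5 FPKM in controls and at 30.7, 31.9, 31.6, 34.4 and 34.0 FPKM in A-PDK1KO hearts. Apart from control replicate 4 the hearts lay close together (a log2 difference of -0.06, 95% interval -0.24 to 0.12, limma adjusted p = 0.808). Kcnj8 was at 11.9, 11.3, 11.6, 14.9 and 15.02 FPKM in controls and 12.9, 17.1, 11.7, 13.2 and 13.4 FPKM in A-PDK1KO hearts (a log2 difference of 0.07). The pericyte markers, Kcnj8 among them, summed to 124 to 165 FPKM in controls and 124 to 152 FPKM in A-PDK1KO hearts. Of the calcium-activated potassium channels, Kcnn1 was at 3.58, 2.88, 3.71, 3.68 and 3.26 FPKM in controls. It was at 2.86, 3.67, 3.95, 3.52 and 2.93 FPKM in A-PDK1KO hearts, around the same level (a log2 difference of -0.01). Kcnn2 was below the filter at 0.836 ± 0.180 and 0.699 ± 0.133 FPKM.

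Sodium channel genes are described through Scn4a, Scn7a and Scn4b. Scn4a, the pore of skeletal muscle, was at 1.61, 2.44, 3.32, 2.64 and 2.65 FPKM in controls and 2.46, 2.97, 2.54, 3.65 and 3.57 FPKM in A-PDK1KO hearts, and the groups overlapped (a log2 difference of 0.20). Scn7a, a sodium-sensing channel, was at 1.75 ± 0.193 and 1.92 ± 0.416 FPKM.

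Scn4b, a beta subunit, which adjusts gating of the pore, was at 16.1, 16.9, 24.0, 13.1 and 20.8 FPKM in controls. It was at 13.5, 27.4, 16.8, 19.7 and 12.5 FPKM in A-PDK1KO hearts, with a wide spread in both groups (a log2 difference of -0.04, 95% interval -0.47 to 0.39).

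A list of 43 genes, chosen as regulators or partners of heart ion channels, was described in the same fit. Of these 33 were in the table and 32 tested. Among those tested 2 fell and 0 rose, which is 6.25% called against 2.08% of all tested genes (0.871% lower). An unadjusted p under 0.05 was reached by 10, or 31.2%, against 15.6% of all tested genes, and the median log2 difference was -0.03, with 15 above 0. Both genes that fell encode popeye proteins, cAMP-binding membrane proteins that bind and regulate the two-pore channel TREK. TREK is not among the members, whose two-pore genes are Kcnk1, Kcnk3 and Kcnk6. Popdc2 fell from 184 ± 20.7 to 129 ± 14.03 FPKM (limma adjusted p = 0.0168) and Popdc3 from 16.4 ± 1.72 to 12.1 ± 1.13 FPKM (0.0325). Their groups did not overlap, and the calls held in 8 and 2 of 10 fits with 1 heart left out. Popdc2 was lost without A-PDK1KO replicate 3 (0.0523) or 5 (0.0522). Popdc3 held only without control replicate 4 (0.0246) or A-PDK1KO replicate 4 (0.0352), and in the other fits its adjusted p reached 0.0905. Popdc3 also lost its call on the TPM scale (0.0632), with quantile normalization (0.0861), the replicate block (0.0741), median-of-ratios factors (0.0680) and scaling that ignores mitochondrial and haemoglobin genes (0.0629), and Popdc2 lost it on the TPM scale (0.0586). Neither passed among the 6 hearts with little Myl7 (0.238 and 0.348). The third member of that family, Bves, was at 8.03 ± 0.799 and 6.65 ± 0.615 FPKM, and its groups overlapped (log2 difference -0.24, limma adjusted p = 0.183). Rrad, a small GTPase that restrains L-type channels through their beta subunit, was at 62.2 ± 22.9 and 125 ± 37.7 FPKM (limma adjusted p = 0.0605), with overlapping groups. Rrad passed upward with a minimum of 5 FPKM (0.0389), quantile normalization (0.0499), voom (0.0271), scaling that ignores mitochondrial and haemoglobin genes (0.0477) and the replicate block (0.0202). Of the fits with 1 heart left out it passed only without control replicate 2 (0.0348). It did not pass on the TPM scale, with median-of-ratios factors, with atrial tissue as a covariate or among the 6 hearts with little Myl7. The sulfonylurea receptor genes Abcc9 and Abcc8 are partners of the ATP-sensitive pores. Abcc9 was at 21.8 ± 2.75 and 18.1 ± 1.77 FPKM (log2 difference -0.25, limma adjusted p = 0.213). Abcc8 was at 2.08 ± 0.223 and 1.69 ± 0.0904 FPKM (log2 difference -0.19, limma adjusted p = 0.269). Both had an unadjusted limma p under 0.05, and neither was called.

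Ratios of 2 subunits within a heart do not depend on the scaling of the library. The pairs below were chosen after their values were seen, and they are given as a description. Hcn2 stood at 5.74 to 9.07 times Hcn4 in controls and 1.58 to 5.23 times in A-PDK1KO hearts. Kcnip2 stood at 16.2 to 19.4 times Kcnd2 in controls and 10.7 to 14.6 times in A-PDK1KO hearts. Neither ratio overlapped between the groups, although Kcnd2 and Hcn4 themselves did. Hcn2 and Kcnip2 were already separated on their own, so their ratios largely restate that.

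The same held for a pair whose members were not called. Cacnb2 stood at 0.538 to 0.636 of Cacna1c in controls and 0.251 to 0.420 in A-PDK1KO hearts. Here too Cacnb2 was already separated on its own. The ratios Kcnj2 over Kcnj12, Kcnd2 over Kcnd3 and Cacna2d1 over Cacna1c hold no gene separated on its own, and they overlapped between the groups.

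**Figure D4:**
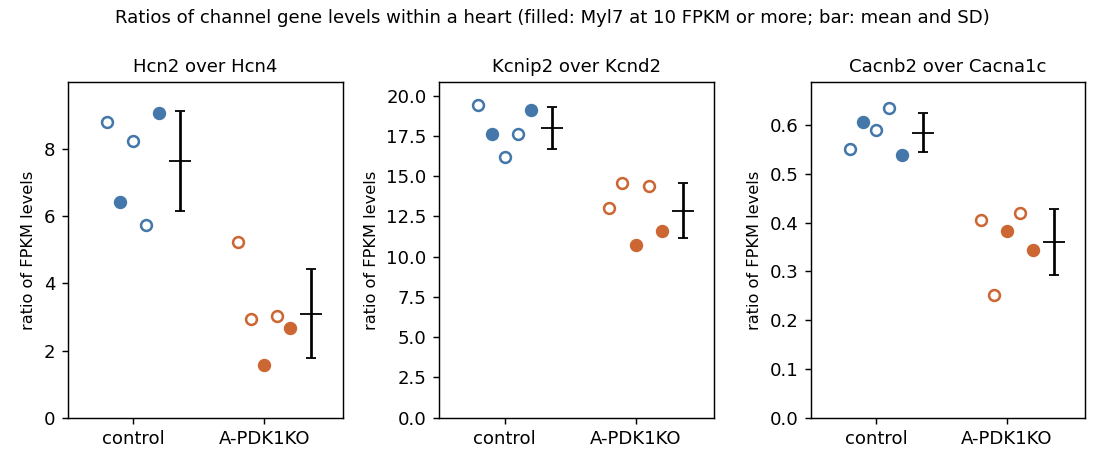
Ratio of FPKM levels of 2 channel subunits within each heart, for 3 pairs; filled points are hearts with Myl7 at 10 FPKM or more and the bar gives mean and SD of 5 hearts. Mean ratios were 7.65 and 3.09 for Hcn2 over Hcn4, 18.0 and 12.9 for Kcnip2 over Kcnd2, and 0.585 and 0.36 for Cacnb2 over Cacna1c, in control and A-PDK1KO hearts.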

How the data were processed

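RNA of 10 mouse hearts, 5 control and 5 A-PDK1KO, was grouped by the genotype label. Per the labels' protocols, the paired-end reads were checked with FastQC 0.11.7. The submitters' processing notes name Trimmomatic 0.38, HISAT2 2.1.0, featureCounts 1.6.3 and the build mm10; annotation and strand setting: not given in the sources used here. Deposited values are FPKM for 11790 genes, each reaching at least 1.00 FPKM in some heart.

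The 9987 genes whose mean reached 1 FPKM were tested on log2(FPKM + 1) with limma 3.58.1 in R 4.3.3 (empirical Bayes trend, two-sided, no covariate), A-PDK1KO minus control, and called at a Benjamini-Hochberg adjusted p under 0.05. That scale understates the change of low genes. The p-values set the difference of the group means against the spread between hearts of 1 group.

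FPKM divided by the value of 1 read, with GENCODE M21 exon lengths, gave whole reads (within 0.05) in all hearts for 98.2% of genes and 98.4% of values; these served for depth and for limma voom, which called 220 genes. Reads of Kcnip2 and Cacna1c were not whole in every heart and are approximate. Overlapping genes and opposite strands cannot be separated. Opposite-strand genes that are in the deposited table overlap 272 exon bases of Kcng2 and 229 of Kcnk3.

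The members, the regulator and marker lists and the settings were chosen with earlier results of these data known. Counts cover all 39 members, 4 of which are not reported singly here or drawn in the plots. Values in every heart are given for called members, for the 2 most abundant tested members of each current class and for the tested member of smallest p where that was under 0.05. Other settings tried were a pseudocount of 0.1, no filter, a minimum of 5 FPKM, the TPM scale, other scalings, robust variances, atrial tissue as a covariate, the 6 hearts with Myl7 under 10 FPKM, a replicate block, a threshold of 0.1 and each heart left out. Leaving out 2 hearts together, and fits with no filter for Kcnk1, were added after seeing the data; the latter support nothing here.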

Additional observations from a re-analysis of the deposited data

Results flagged for a closer look

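In 70 groups (35 channel genes in 2 groups of 5 hearts), 4 held a heart whose gap to the nearest other was over 0.71 of the group's range (Dixon's 95% critical value), where chance gives about 1 in 20, or 3.5. Kcnh2 was at 12.8 FPKM in control replicate 4, against 6.36 to 7.59 FPKM in the other controls. Kcnh2 was also at 6.11 FPKM in A-PDK1KO replicate 1, against 8.01 to 8.76 FPKM in the rest of that group. Kcnj11 was at 42.5 FPKM in control replicate 4, against 31.5 to 32.5 FPKM in the other controls. Kcnk1 was at 2.02 FPKM in A-PDK1KO replicate 2, against 1.07 to 1.30 FPKM in the rest of its group. Control replicate 4 holds 2 of these and A-PDK1KO replicate 2 holds 1, and both hearts have the highest scaling factors.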

How the results depend on the processing

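The 3 called channel genes and the 7 reported with an unadjusted p under 0.05 kept their direction in every alternative run. Of the 27 tested channel genes reported, 12 changed sign in at least 1 alternative. In the main fit their log2 differences were at most 0.08 in size. Over the alternatives some of the 12 went further, Scn4b from -0.30 to 0.17 and Kcnj12 from -0.24 to 0.10. The number of potassium channel genes above 0 was 7 to 10 of 17 under other scalings, against 8. The count of 3 called channel genes became 5 (2 higher, 3 lower) with scaling without mitochondrial and haemoglobin genes and 0 among the 6 hearts with Myl7 under 10 FPKM, where 9 had an unadjusted limma p under 0.05 and only 3 hearts stand against 3. With 1 heart left out it ranged from 1 to 3, and was 1 without A-PDK1KO replicate 3 or 5. Voom on recovered reads called 4. The count of 2 called regulators became 1 with median-of-ratios factors, 3 with voom, and 0 both on the TPM scale (6 at an unadjusted p under 0.05) and in those 6 hearts (4). With 1 heart left out it ranged from 0 to 2: 0 without A-PDK1KO replicate 3 or 5 (7 and 6 at an unadjusted p under 0.05), and 1 without control replicate 1, 3 or 5 or A-PDK1KO replicate 1 or 2. The median log2 fold change of the tested channel genes lay between -0.03 and 0.09 over all alternatives, -0.02 to 0.09 with 1 heart left out. Over all genes the 208 calls became 62 on the TPM scale, 232 higher and 94 lower with mitochondrial and haemoglobin genes left out of the scaling, 4 in the 6 hearts and 57 to 150 with 1 heart left out; the cause was not tested.

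The labels do not say whether the replicate numbers pair the hearts. Deviations of same-numbered hearts correlated at -0.05, -0.12, 0.05, 0.09 and 0.08, and 0 of 10 hearts lay closest to their own number. No pairing was seen in these values, which cannot settle whether the animals were paired. With a replicate block 4 channel genes passed, Kcng2 added (adjusted p = 0.0453), 2 regulators passed (Popdc2 lower and Rrad higher, with Popdc3 lost at 0.0741), and the median channel log2 fold change was 0.03.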
